A study of Mus musculus with 2 samples.

Results

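Imprinted genes are expressed from only the maternal or only the paternal chromosome, and most lie in clusters governed by a control region that carries DNA methylation on 1 parental copy. Open chromatin was read at 10 such genes, chosen by name from the 55413 genes of the GENCODE M21 mouse annotation. They were H19, Igf2, Meg3, Dlk1, Peg3, Snrpn, Kcnq1ot1, Cdkn1c, Igf2r and Mest. It was also read in 7 control regions, windows placed by distance from an annotated start. Earlier results of these data were known when the genes and windows were chosen. The data are DNase-seq libraries of 2 biological replicates of MN1, an immortalized mouse line given the strain B6NCrl. DNase-seq maps sites where nuclease cuts chromatin freely, which marks promoters, enhancers and insulators. Both cultures received 10 nM methyltrienolone, a synthetic androgen. No untreated library was analysed here, so there was 1 group and no comparison between conditions. The labels give no tissue, sex or age, so no cell type could be checked, and nothing in these lists separates the maternal from the paternal copy. A peak can therefore come from either chromosome or from both.

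The clusters are controlled in a few known ways. At H19 and Igf2, the unmethylated maternal control region binds the insulator protein CTCF, which keeps enhancers beyond H19 away from Igf2, a fetal growth factor. At Kcnq1ot1 and at Airn, the control region is the promoter of a long noncoding RNA that silences protein-coding neighbours such as Cdkn1c and Igf2r on the same chromosome. The zinc finger protein ZFP57 binds a short methylated sequence and protects the imprint in the embryo, and YY1 binds a repeated site in the first intron of Peg3.

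Replicate 1 held 189648 peaks of 150 bp and 158286 hotspots, the broader zones of raised cutting. Replicate 2 held 170745 peaks and 142225 hotspots. Each peak carries the authors' score, a whole number from 1 to 150 on a scale that no source used here explains, with a median of 53 in replicate 1 and 51 in replicate 2. It is used only within a list, as a percentile, the share of that list's peaks with the same score or less. Where peaks of the replicates overlapped, by as little as 1 bp, they were joined. The 127807 resulting shared regions hold 68.7% of the peaks of replicate 1 and 76.7% of those of replicate 2. Read depth is not analysed here, and a site with no called peak is not shown to be closed.

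The control region between H19 and Igf2 held a row of CTCF sites, and open chromatin was called over some of them. The following are the peaks with such a site, read from the RefSeq copy of GRCm38.p6, the assembly of mm10. Capitals mark the core of the CTCF motif, which lies on the minus strand, the strand of H19, and is seen here as its complement.

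H19/Igf2 control region, replicate 1, nearest to H19, chr7:142580276-142580425, plus strand: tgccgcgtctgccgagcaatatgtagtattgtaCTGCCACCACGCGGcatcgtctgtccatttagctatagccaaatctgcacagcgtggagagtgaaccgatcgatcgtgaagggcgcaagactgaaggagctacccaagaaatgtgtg
H19/Igf2 control region, replicate 2 only, middle, chr7:142580696-142580845, plus strand: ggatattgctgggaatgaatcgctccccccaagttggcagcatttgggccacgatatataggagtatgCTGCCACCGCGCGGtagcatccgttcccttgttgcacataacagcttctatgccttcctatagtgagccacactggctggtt
H19/Igf2 control region, replicate 1, far end, chr7:142581716-142581865, plus strand: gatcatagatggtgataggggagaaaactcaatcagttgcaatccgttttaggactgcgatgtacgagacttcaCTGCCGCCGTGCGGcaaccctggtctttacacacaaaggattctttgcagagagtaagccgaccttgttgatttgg

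The window from 2 to 4 kb upstream of the H19 start (chr7:142580143-142582143, intergenic) held 4 matches to the 12-letter core of the CTCF motif, sought on both strands with no mismatch at its fixed letters. All 4 were on the minus strand and all 4 also matched a stricter 14-letter form of it. From H19 outwards they read CCGCGTGGTGGCAG at 2173 bp, CCGCGCGGTGGCAG at 2628 bp, CCGCACGGCGGCAG at 3654 bp and CCGCGTGGTGGCAG at 3898 bp upstream of the start. The gaps between them were 455, 1026 and 244 bp.

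The first and the third core lay in peaks of both replicates. At the first, the peak scored 47 in replicate 1 (percentile 44.5) and 43 in replicate 2 (percentile 40.7). At the third, it scored 54 (percentile 51.9) and 56 (percentile 56.3). The second core lay in a peak of replicate 2 only, with a score of 37 (percentile 31.2), and the fourth lay in no peak or hotspot of either replicate. The fourth has the same 14 letters as the first, and every 32-base sequence around all 4 cores occurs once in the genome. Whether reads of these libraries were placed there was not tested.

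These peaks were of middling or lower score in both lists. The hotspots under them were 198 and 199 bp wide in replicate 1, and 220, 220 and 296 bp wide in replicate 2. Together these hotspots covered 19.8% and 36.8% of the window. Their widths were not ranked among all hotspots. Their deposited −log10 q was 2.98 and 3.82 in replicate 1. In replicate 2 it was 4.52, 3.61 and, over the third core, 100, the highest value the authors write.

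The 14-letter form is rare. It has 561 matches in the main chromosomes, of which 18.2% lie in a peak of replicate 1, 20.3% in a peak of replicate 2 and 17.1% in peaks of both. Runs of 4 successive matches within 2 kb, which could overlap, occur 3 times, the 4 cores here included. In all peaks it was found in 0.0559% for replicate 1 and 0.0691% for replicate 2, and the 12-letter core in 3.17% and 3.77%. Of all matches of the 12-letter core in the genome, 5.74% lay in a peak of replicate 1 and 6.13% in a peak of replicate 2. It had no match in any of the other 6 control windows.

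Across the 7 control regions, 6 held a region shared by both replicates and the window between Dlk1 and Meg3 held no peak and no hotspot in either replicate. For scale, a shared region lay 2 to 4 kb upstream of the main start in 12.5% of all genes, and 10 to 16 kb upstream in 24.4%. Within 2 kb of the main start it was found in 58.3% of protein-coding genes and in 31.7% of lincRNA and antisense genes. A main start here is the start of the gene's principal annotated transcript. The control regions at Peg3, Mest and Kcnq1ot1 held a peak above percentile 90 in both replicates. These windows lie on gene starts, and the percentile is over all peaks. How often other gene starts hold such a peak was not counted, so these windows are not shown to be unusual. The control regions at H19/Igf2, Snrpn and Airn held no peak above percentile 90.

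**Figure D1:**
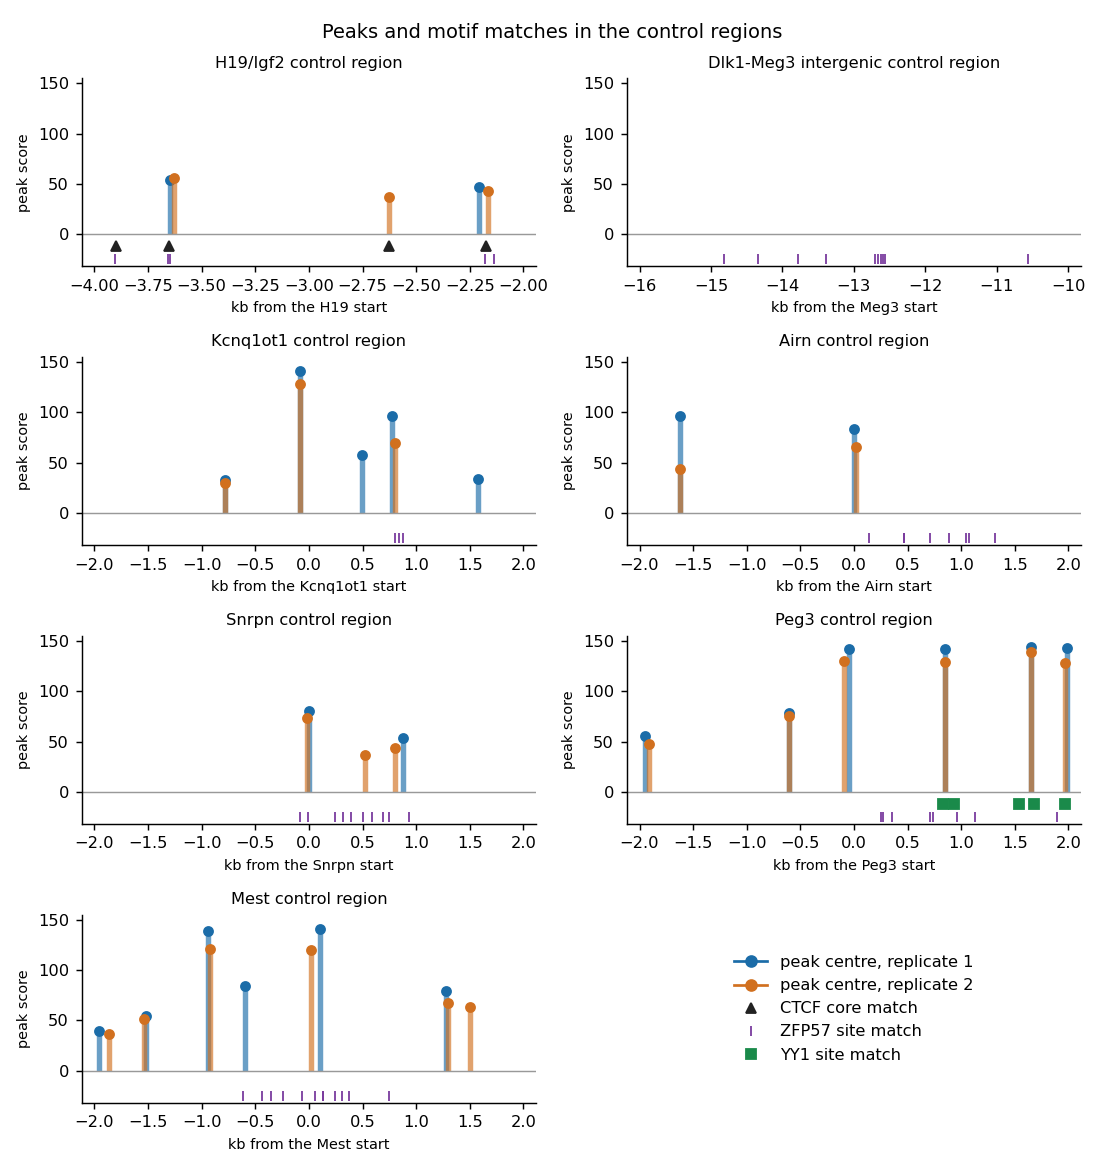
Peaks in the 7 control windows, drawn by their distance in kb from the start of the anchor gene (x axis) and the authors' score (y axis), with points on stems for each replicate and marks below 0 for motif matches. The Peg3, Mest and Kcnq1ot1 windows hold the tallest peaks, those above percentile 90 of both lists, and the window between Dlk1 and Meg3 is empty.

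Peg3, a zinc finger gene expressed from the paternal copy, had the highest scores and the widest hotspot of the control regions. The sequences below are the replicate 1 peaks of its first intron that overlap the control window, shown because each holds the YY1 core AANATGGCG, in capitals.

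Peg3 first intron, site about 1.98 kb downstream of the start, chr7:6728356-6728505, plus strand: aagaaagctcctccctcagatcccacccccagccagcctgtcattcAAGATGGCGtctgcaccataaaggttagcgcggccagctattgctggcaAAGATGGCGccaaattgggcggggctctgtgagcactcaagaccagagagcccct
Peg3 first intron, site 1.651 kb downstream, chr7:6728696-6728845, plus strand: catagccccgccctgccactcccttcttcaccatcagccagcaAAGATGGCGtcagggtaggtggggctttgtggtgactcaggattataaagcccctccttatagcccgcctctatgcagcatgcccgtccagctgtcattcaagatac
Peg3 first intron, site 0.851 kb downstream, chr7:6729496-6729645, plus strand: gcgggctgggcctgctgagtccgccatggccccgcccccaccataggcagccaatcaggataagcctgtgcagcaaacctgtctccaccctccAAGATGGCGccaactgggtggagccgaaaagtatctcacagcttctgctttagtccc

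The window of 2 kb on either side of the Peg3 main start (chr7:6728421-6732421) held 6 peaks in each replicate, and all 6 were shared. Those in the intron, at 1981, 1651 and 851 bp downstream of the start, scored 143, 144 and 142 in replicate 1 and 128, 139 and 129 in replicate 2. The peak at the start, in the exons and UTRs at the border of Peg3 and Usp29, scored 142 and 130. On the Usp29 side, scores fell off to 78 and 75 at 609 bp and to 56 and 48 at 1929 bp.

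The hotspot over Peg3 was 3672 bp wide in replicate 1 and 4362 bp in replicate 2. Only 109 of 158286 hotspots were wider in replicate 1, and 29 of 142225 in replicate 2. It reached 2 more shared sites of the intron beyond the window, at chr7:6727836-6728025 (scores 141 and 129) and chr7:6727396-6727605 (132 and 111).

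The YY1 core matched 10 times in that hotspot, 828 to 3116 bp downstream of the start. All 10 matches were on the plus strand and read AAGATGGCG. Peaks of replicate 1 held 5 of them, peaks of replicate 2 held 7, and 5 lay in peaks of both. No other hotspot of either list had 10 matches, and the next highest number was 7. The core was found in 0.491% of all peaks of replicate 1 and 0.525% of those of replicate 2, and in 1.15% and 1.19% of promoter peaks. Of its matches in the genome 2.12% lay in a peak of replicate 1 and 2.08% in a peak of replicate 2. None of the other control windows held a match.

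Mest, which encodes a hydrolase-like protein of mesoderm and is expressed from the paternal copy, had an open control region of similar extent (chr6:30736050-30740050). Each replicate had 6 peaks there and 5 regions were shared. The peaks at the main start, in the first exon and its UTR, scored 141 in replicate 1 (percentile 97.1) and 120 in replicate 2 (percentile 93.4). A second high site in the intron about 0.93 kb upstream scored 139 and 121. The other shared sites of the window scored 79 and 67, 54 and 51, and 39 and 36. Peaks not shared scored 84 in replicate 1 and 63 in replicate 2. By the lower percentile over both replicates, the highest shared region farther from Mest was chr6:30628196-30628345, in an intron of Cpa5, a carboxypeptidase gene, with 144 and 129. The hotspots over these sites were 2594 and 2673 bp wide, with 700 and 541 hotspots wider in their lists.

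Kcnq1ot1, the noncoding RNA that lies antisense inside Kcnq1, had its highest peak at chr7:143296556-143296705. This site is centred 81 bp upstream of the Kcnq1ot1 start, in an intron of Kcnq1, and scored 141 (percentile 97.1) and 128 (percentile 95.7). A second shared site lay inside the transcript with scores of 97 and 70, and one more, 781 bp upstream, scored 33 and 30. Peaks of replicate 1 only, inside the transcript, scored 58 and 34. The hotspot was 2323 bp wide in replicate 1 and 1831 bp in replicate 2.

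Peaks at Kcnq1ot1 and Snrpn also held the 6-letter ZFP57 site TGCCGC, in capitals below. The Kcnq1ot1 sequence is a peak of replicate 1, and the Snrpn sequence is from a peak of replicate 2. For Snrpn only the bases outside annotated UTRs are shown, and the second match lay outside the replicate 1 peak.

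Kcnq1ot1, inside the transcript, chr7:143295696-143295845, plus strand: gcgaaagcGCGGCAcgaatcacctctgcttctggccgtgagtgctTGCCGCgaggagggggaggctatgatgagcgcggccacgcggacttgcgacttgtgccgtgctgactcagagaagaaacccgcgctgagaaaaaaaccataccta
Snrpn, upstream of the main start, chr7:60005112-60005205, plus strand: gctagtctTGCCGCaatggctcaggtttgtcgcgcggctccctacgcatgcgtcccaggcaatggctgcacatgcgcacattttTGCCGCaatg

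The Snrpn control region, at the start shared by Snrpn and Snurf (chr7:60003111-60007111), was open at lower scores. The shared site on the start (chr7:60005036-60005205) scored 80 (percentile 71.4) and 73 (percentile 70.6). A second one, in the intron about 0.84 kb downstream, scored 54 and 44, and a peak of replicate 2 only, 521 bp downstream, scored 37. Hotspots covered 31.1% of the window in replicate 1 and 19.7% in replicate 2.

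Airn, the noncoding RNA that starts inside Igf2r, had a shared site on its start (chr17:12741236-12741405, an exon of Airn in Igf2r) with scores of 84 (percentile 73.7) and 66 (percentile 65.4). A second site, 1621 bp upstream of the Airn start in an Igf2r intron, scored 97 in replicate 1 and 44 in replicate 2. Replicate 1 ranked the upstream site above the start and replicate 2 ranked it below. Hotspots covered 18.9% and 10.2% of the window.

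The window of the Dlk1-Meg3 intergenic control region, 10 to 16 kb upstream of the Meg3 start (chr12:109525005-109531005), was the only empty one of the 7. Of its 32-base sequences 97.6% occur once in the genome. It held 10 ZFP57 matches, none in a peak.

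TGCCGC was matched in every control window on both strands, from 3 times at Kcnq1ot1 to 12 times at Mest. Matches lay in a peak of at least 1 replicate in 4 of the 7 windows. Both replicates' peaks held 4 of 5 matches at H19/Igf2, 2 of 3 at Kcnq1ot1, 1 of 10 at Snrpn and 1 of 12 at Mest. No match lay in a peak at Airn (8 matches) or Peg3 (8 matches). Every match at Peg3 and Mest lay in a hotspot of both replicates. When 300 bp around each peak centre was searched instead, 6 of the 7 windows had a match, with Airn and Peg3 added. At the first, the third and the fourth CTCF core of H19/Igf2, a TGCCGC match on 1 strand or the other overlaps the core. TGCCGC was found in 3.85% of all peaks of replicate 1 and 3.98% of those of replicate 2, and in 8.06% and 8.12% of promoter peaks. Of its matches in the genome 4.62% lay in a peak of replicate 1 and 4.30% in a peak of replicate 2.

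An open promoter here is one with a shared region within 1 kb of any annotated start of its gene. By this rule 6 of the 10 genes were open, against 32.9% of all genes. Of the 7 protein-coding members 4 were open (59.5% of all protein-coding genes), and of the 3 noncoding members 2 were (27.0% of lincRNA and antisense genes). Kcnq1ot1, Mest, Peg3, Snrpn, Meg3 and Igf2r were open. H19 and Dlk1 had promoter peaks in replicate 1 only, and Igf2 and Cdkn1c had none in either replicate. Taken singly, replicate 1 had a promoter peak at 8 of the 10 genes (35.7% of all genes) and replicate 2 at 6 (34.5%). At the 5′ end of the gene alone, Peg3, Kcnq1ot1 and Mest were open, while 55.0% of all protein-coding genes were. The Mest 5′ end lies far upstream of its main start, and the shared site there scored 73 in replicate 1 and 59 in replicate 2.

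**Figure D2:**
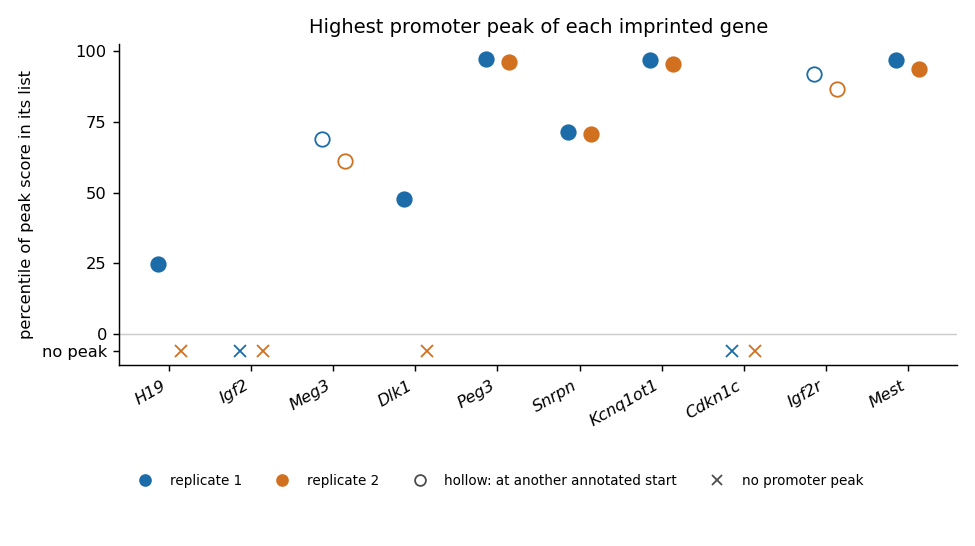
Highest promoter peak of each of the 10 genes in each replicate, as a percentile of that replicate's list (y axis), with hollow points where that peak lies at an annotated start other than the main one. Peg3, Kcnq1ot1 and Mest stand above percentile 90 in both replicates, H19 and Dlk1 have a point for replicate 1 only, and Igf2 and Cdkn1c have none.

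The growth factor Igf2 (chr7:142650766-142666816, minus strand) had no peak and no hotspot within 1 kb of its main start, and no peak at any other annotated start. In 36.9% of protein-coding genes no promoter peak was called in either replicate. Its receptor Igf2r, which carries the growth factor to lysosomes (chr17:12682406-12769664, minus strand), was open at a start annotated inside the gene. That peak, chr17:12750116-12750265, lies in an intron and scored 126 (percentile 92.0) and 101 (percentile 86.7). At the main Igf2r start only replicate 1 had a peak, with a score of 50 (percentile 47.8).

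Cdkn1c, an inhibitor of cyclin-dependent kinases (chr7:143458339-143461050, minus strand), had neither peak nor hotspot at its start. The nearest shared sites were 2.46 kb upstream with scores of 44 and 32, 3.02 kb upstream with 77 and 58, and 5.46 kb upstream with 68 and 69. The stretch within 1 kb of the start was thus empty while a group of sites lay just beyond it. The sites at 3.02 and 5.46 kb each held the 12-letter CTCF core.

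H19 (chr7:142575529-142578143, minus strand), a noncoding RNA abundant in the embryo, had peaks in replicate 1 at 147 bp upstream and 913 bp downstream of its start. Both scored 33 (percentile 24.6), and replicate 2 had none. Dlk1, a transmembrane protein related to Notch ligands (chr12:109452823-109463336, plus strand), had a replicate 1 peak 401 bp downstream of its start with a score of 50 (percentile 47.8), and none in replicate 2. For both genes the replicates differ in whether anything was called at all.

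Meg3, a noncoding RNA of the maternal copy (chr12:109541001-109571726, plus strand), had no peak or hotspot at its main start. Its shared sites were at starts annotated farther in: chr12:109545916-109546305 with scores of 71 and 61, chr12:109546476-109546625 with 39 and 49, and chr12:109547136-109547285 with 76 and 48. They lie about 5.11 to 6.21 kb into the gene. Snrpn, a splicing protein of neurons (chr7:59982495-60140219, minus strand), showed the opposite arrangement, with peaks at its main start and none at the annotated start farthest upstream.

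Promoters rich in CpG are usually open, so the CpG content of the 1 kb centred on the main start was set beside the calls. Of 10118 protein-coding genes with an observed over expected CpG of at least 0.6 and at least 50% GC, 86.1% had a shared region within 1 kb of the main start, against 29.2% of the 11820 others. Igf2r (0.902), Cdkn1c (0.883) and Dlk1 (0.651) met both limits and had no shared region there. Mest (0.780) and Peg3 (0.605) met them and had one. Igf2 (0.0606), H19 (0.476) and Meg3 (0.534) fell below and had none, while Snrpn (0.570) and Kcnq1ot1 (0.449) fell below and had one. The share of 32-base sequences that occur once was between 95.9% (Dlk1) and 100% within 1 kb of all 10 main starts.

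Around the 10 genes, counting the gene and 100 kb on either side, lay 202 distinct shared regions. Of these 120 were distal, more than 2.5 kb from any annotated start, 19 lay in a member's own promoter window and 27 were near more than 1 member. The median member had 23.5 shared regions, or 10.4 per 100 kb, beside 21 and 8.57 over all protein-coding genes (quartiles 2.70 and 15.5 per 100 kb). Igf2r had 14.6 per 100 kb, Cdkn1c 14.3, Dlk1 12.8 and Mest 12.4. Snrpn had 1.12, and 19.3% of protein-coding genes had fewer shared regions.

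Near Snrpn, 4 peaks of replicate 1 and 6 of replicate 2 were called in 358 kb. The 4 shared regions were those at the main start, a site in an intron with scores of 3 and 8, and a site 234 kb upstream of the main start with scores of 19 and 34. The intron site is near the bottom of both lists. The upstream site is at percentile 3.98 in replicate 1 and 26.0 in replicate 2.

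Between H19 and Igf2, a stretch of 72.6 kb, both replicates had 7 peaks and 4 shared regions. They were the CTCF sites of the control region described above and sites in introns of Gm33148, scoring 41 and 32 at chr7:142605436-142605605 and 40 and 51 at chr7:142611196-142611365. The other side of H19 was more open. Tissue enhancers that H19 and Igf2 share are known in this stretch, in and around Nctc1. There, shared sites 14.8, 24.0 and 28.0 kb downstream of the H19 start scored 102, 129 and 100 in replicate 1 and 79, 67 and 87 in replicate 2. Upstream of Igf2, an intergenic site 9.03 kb from its main start (chr7:142675776-142675925) scored 96 and 95. Its lower percentile over both replicates, 80.0, was the highest of the shared regions near Igf2, although the sites 14.8 and 24.0 kb downstream of H19 scored higher in replicate 1. By the same measure the highest site near H19 was chr7:142533156-142533305, at the start of the ribosomal protein gene Mrpl23, with scores of 105 and 110.

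**Figure D3:**
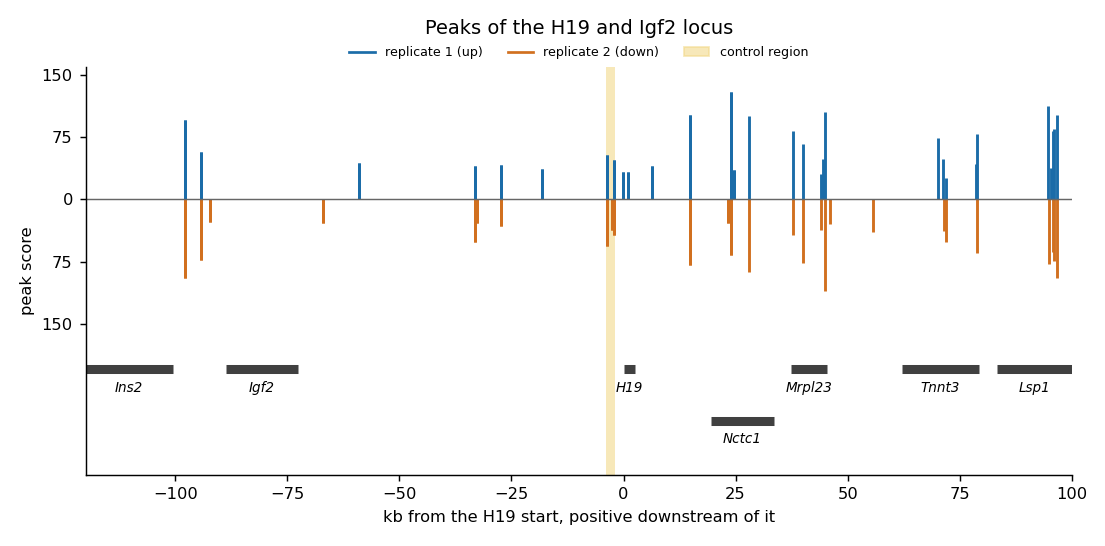
Peaks of both replicates around H19 and Igf2, by distance in kb from the H19 start in the direction of H19 transcription (x axis) and the authors' score (y axis, replicate 1 up and replicate 2 down), with the control window shaded. The tallest sites downstream of H19 exceed those of the control region just upstream of it, and no peak lies at the Igf2 starts.

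The stretch upstream of Dlk1 held 20 shared regions within 100 kb, all intergenic, while 7 lay downstream and none in the gene. The highest was chr12:109437036-109437205, 15.7 kb upstream, with scores of 135 (percentile 95.0) and 112 (percentile 90.9). Beside it, sites 16.4 and 15.0 kb upstream scored 110 and 109 in replicate 1 and 95 and 112 in replicate 2, and the former held a CTCF core. A site 6.76 kb upstream scored 110 and 105, and it was also the highest near Meg3 by the lower percentile. The 77.7 kb between Dlk1 and Meg3 held only 4 shared regions, the highest with scores of 89 and 50 in an intron of Gm34081.

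**Figure D4:**
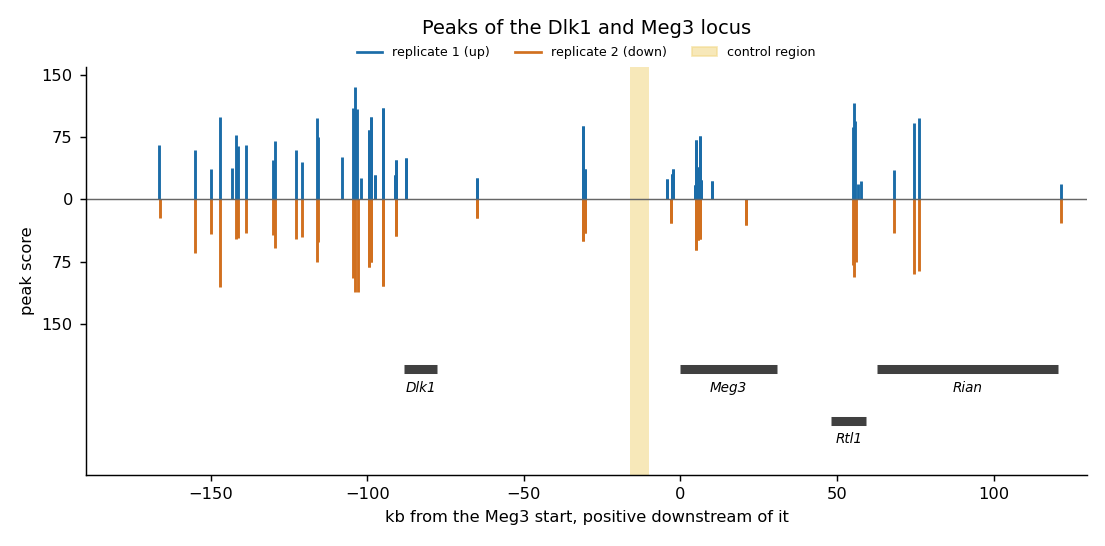
Peaks of both replicates around Dlk1 and Meg3, by distance in kb from the Meg3 start (x axis) and the authors' score (y axis, replicate 1 up and replicate 2 down), with the control window shaded. Most tall peaks lie upstream of Dlk1, few lie between the genes, and the Meg3 peaks start some 5 kb inside the gene.

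Beyond Meg3, the stretch of Rtl1, a retrotransposon-derived gene, held shared sites with scores of 87 and 79, 116 and 93, and 94 and 75, about 55.0 to 55.9 kb from the Meg3 start. Neither Rtl1 nor the noncoding RNA Rian had a peak within 1 kb of a start in either replicate.

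In the domain of Kcnq1ot1 and Cdkn1c, sites were spread over the introns of Kcnq1, a potassium channel gene. The highest shared region near Kcnq1ot1 apart from its own start was chr7:143340716-143340865, 44.2 kb upstream in a Kcnq1 intron, with scores of 139 and 121. Inside the Kcnq1ot1 transcript, chr7:143265956-143266105 scored 138 in replicate 1 and 95 in replicate 2. The promoter of Kcnq1 itself had lower scores. Its shared site, chr7:143105356-143105545, scored 37 and 45, and a separate peak of replicate 1, chr7:143108416-143108565, scored 41. The highest site near Cdkn1c was at the start of Nap1l4, a histone chaperone gene, 88.1 kb upstream, with 144 and 136.

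**Figure D5:**
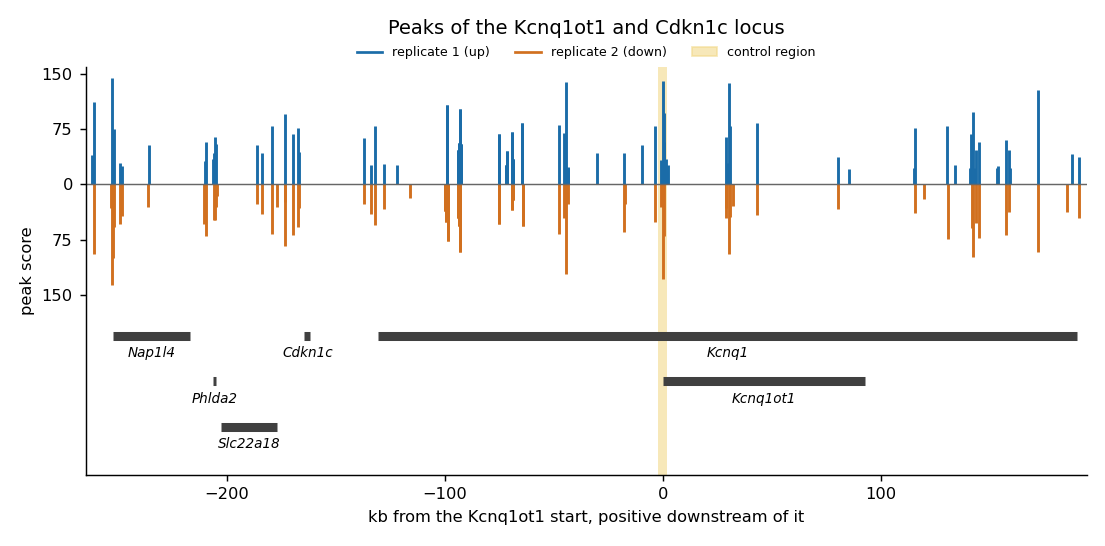
Peaks of both replicates across the domain of Kcnq1ot1 and Cdkn1c, by distance in kb from the Kcnq1ot1 start in the direction of its transcription (x axis) and the authors' score (y axis, replicate 1 up and replicate 2 down), with the control window shaded. The tallest peaks stand at the Kcnq1ot1 start, within Kcnq1 and at Nap1l4, and none stands at the Cdkn1c start.

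Inside the gene bodies, outside the promoter windows, 29 shared regions were found. Igf2r held 16 of them (1.83 per 10 kb), Kcnq1ot1 5 (0.537), Peg3 4 (1.51), Mest 3 (1.20) and Snrpn 1, and the other 5 genes held none. Of the empty genes, H19 and Cdkn1c are only 2.615 and 2.712 kb long. Sites in gene bodies were not counted over all genes, so these numbers have no baseline. In Igf2r, a run of 5 sites between chr17:12724116 and chr17:12726165 scored 62 to 117 in replicate 1 and 61 to 96 in replicate 2. Closer to the Igf2r start, sites 14.9 and 11.5 kb downstream of it scored 126 and 125 in replicate 1 and 94 and 95 in replicate 2. These lie in introns of Igf2r that Airn also spans. The highest site near Igf2r, chr17:12790696-12790945, was 21.2 kb upstream of its start within the Airn transcript and scored 145 and 118. It also lay 840 bp from a start of the noncoding gene CT030636.1.

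Of 63 other imprinted genes, 39 were open (61.9%), 17 had no promoter peak and 7 had peaks that were not shared. Among the protein-coding ones 33 of 55 were open (60.0%), beside 59.5% of all protein-coding genes. The open genes with the highest lower percentile were Trappc9 (scores 149 and 145), Tssc4 (149 and 144), Ube3a (147 and 143), Inpp5f (146 and 140), Mcts2 (144 and 138), Nap1l4 (144 and 136), the noncoding Nespas (145 and 136) and Commd1 (146 and 133). Ube3a encodes a ubiquitin ligase imprinted in neurons and Trappc9 a vesicle trafficking subunit. In alphabetical order the first 8 genes with no promoter peak in either replicate were Ascl2, Dio3, Gatm, Htr2a, Kcnk9, Klf14, Nnat and Peg12.

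Of the listed imprinted genes lying within 100 kb of the 10, Usp29 shared the Peg3 site (142 and 130) and Snurf the Snrpn site (80 and 73). Copg2, a coatomer subunit gene that overlaps the end of Mest, scored 139 and 140, at a start more than 100 kb from Mest. Zim1, a zinc finger gene near Peg3, scored 113 and 86. In the Cdkn1c domain Phlda2 scored 64 and 48, and the transporter gene Slc22a18 scored 79 and 67. Ins2, an insulin gene, had a peak of 41 in replicate 1 only. Slc22a2 and the noncoding Snhg14 had no promoter peak in either replicate.

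By the pair of percentiles over both libraries, the nearest pairs of a member and another imprinted gene were Mest with H13 (0.281 percentile points, H13 scoring 141 and 122), Kcnq1ot1 with Usp29 (0.680) and Snrpn with Asb4 (1.41, Asb4 scoring 78 and 74). Each member's nearest gene was taken, leaving out genes that share a promoter peak with it.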

How the data were processed

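DNase-seq peak and hotspot lists of 2 replicates of 1 group were used as the authors deposited them. Per the labels the assembly is mm10, and per the listing deposited with each library both lists were derived from its filtered alignment and a further input. No source used here names the aligner, the caller or its filters. The authors deposited a score for each peak, a whole number from 1 to 150, and for each hotspot the −log10 of a q-value, written as 100 where capped. Lists were called per library, so neither is pooled. Only the 21 main chromosomes were used. A peak listed more than once was counted once, which removed 15 entries from replicate 1 and 26 from replicate 2. The labels call the libraries biological replicates. With 1 group no test between conditions was possible, and no p-value is given.

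Starts came from GENCODE M21 and sequences from the RefSeq GRCm38.p6 genome. Promoters reached 1 kb from any start and neighbourhoods 100 kb from the gene. Members, control windows, motifs and lists were chosen with earlier results of these data known. CpG content, the share of sequences that occur once, the count of YY1 matches in hotspots, genome-wide motif matches and the motif counts of the closing section were added after values were seen. Of 64 other imprinted genes 63 were matched by symbol, and Peg3os was not. The text names all 10 genes, the 8 other open imprinted genes whose lower percentile was highest, the first 8 in the alphabet with no promoter peak, all within 100 kb of a member, all factors that keep imprints, the 3 nearest pairs, all peaks of the control regions, and near each member the shared region whose lower percentile over both replicates was highest. Other nearby sites were named after their values were seen. Alternatives changed the windows, the overlap, the stronger share of each list, hotspots for peaks, and the replicate used. The overlap and motif code was tested on simulated data. Calculations used Python 3.11.15, numpy 2.4.6, pandas 2.3.3, pysam 0.24.0 and matplotlib 3.10.9.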

Additional observations from a re-analysis of the deposited data

How the results depend on the processing

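Of the 10 promoters, 6 were open, and 3 were open when only the 5′ end of each gene was used. Peg3, Kcnq1ot1 and Mest were open in all 8 alternatives, Meg3 and Snrpn in 7, Igf2r in 6, H19 in 2, Dlk1 and Cdkn1c in 1 and Igf2 in 0. Leaving out 1 replicate, so that a peak of the other was enough, gave 6 open genes with replicate 2 alone and 8 with replicate 1 alone. H19 and Dlk1 were the genes added without replicate 2. Control regions with an open site stayed at 6 without either replicate. Requiring at least 75 bp of overlap left 3 of 5 shared sites in the Mest window and 1 of 2 in the Snrpn window. The other windows kept theirs, and shared regions near Snrpn fell from 4 to 2. The 202 shared regions near the genes became 110 with the stronger 50% of each list and 306 with 200 kb on either side, and leaving out a replicate gave 243 to 286 sites. The 29 sites in gene bodies became 16 with hotspots found in both replicates and 19 with the stronger 50% of each list, and 35 to 40 without 1 replicate. Fewer peaks entered the stronger lists, and a wider window holds more sites. Other imprinted genes with an open promoter numbered 43 to 44 without 1 replicate, beside 39. No paired analysis was possible because there was 1 group. Read depth limits which sites were called and was not analysed here.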

Other observations

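Of 11 genes for factors that set or keep imprints, 9 had open promoters (81.8%, beside 59.5% of all protein-coding genes). Scores in replicates 1 and 2 were 145 and 136 for Ctcf, 147 and 143 for Yy1, and 113 and 101 for Zfp57. Of the factors that act with ZFP57, Trim28, its corepressor, scored 134 and 125, and Setdb1, a histone methyltransferase, 141 and 138. Zfp445, a second zinc finger protein that protects imprints, scored 134 and 127. The maintenance methyltransferase gene Dnmt1 scored 127 and 113, its partner Uhrf1 150 and 143, and Arid4a 147 and 139. Ctcfl, a testis relative of Ctcf, and Dppa3, an oocyte factor, had no promoter peak in either replicate.

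Both cultures had received an androgen, so the androgen response element, AGAACA and TGTTCT spaced by 3 bases, was sought on both strands with up to 2 mismatches. It was found in 4 of the 202 shared regions near the 10 genes (1.98%), beside 2.75% of all 127807 shared regions. The only match with 0 mismatches was AGAACAGTCTGTTCT at chr6:30664764-30664778, in an intron of Cep41, 73.2 kb upstream of the Mest main start. The site around it scored 59 in replicate 1 and 100 in replicate 2. The others had 2 mismatches and lay in an intron of Rian, upstream of Dlk1 and in an exon of Cep41.

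The 12-letter CTCF core was in 9 of the 202 regions near the 10 genes (4.46%) and in 4.14% of all shared regions. These were the 2 of the H19/Igf2 control region, 1 in Nctc1 (scores 100 and 87), 2 upstream of Dlk1 (99 and 106 at 58.8 kb, 110 and 95 at 16.4 kb), 1 in a Kcnq1 intron (98 and 99) and 3 within 20 kb upstream of Cdkn1c.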
